A study of Homo sapiens with 40 samples.

Results

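RNA levels of SORL1-KO human microglia-like cells were compared with those of unedited WT cells, with 7 libraries in each group. The genes described are all those with at least 1 TPM in at least 7 of these 14 libraries, 13414 of the 60504 deposited genes. TPM is a transcript abundance corrected for length that sums to the same total in every library. The cells resemble the resident macrophages of the brain and were differentiated from the established embryonic stem cell line H9, which is human. WT is unedited H9. For the edited cells the labels give CRISPR/Cas9 clones of H9 with variants on both alleles, and the SORL1 edits they name are a change to a stop codon and A528T, a change of alanine to threonine. SORL1-KO is taken here as the line with the stop codon, since the labels name no other loss-of-function edit of SORL1. The 7 SORL1-A528T libraries serve below as a second reference edited at the same gene, and the whole series holds 40 libraries.

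Every group went through the same differentiation. Haematopoietic progenitors were collected on day 11 and then cultured over 28 days. Their medium held M-CSF at 25 ng/mL, TGF-beta 1 at 50 ng/mL and IL-34 at 100 ng/mL. During the last 3 days it also held CX3CL1 and CD200, both at 100 ng/mL. The labels do not say how many clones make up a group, or whether the libraries within a group are separate differentiations. The p-values therefore measure nothing beyond the scatter among these libraries, and that scatter may be technical. A single clone could also carry changes unrelated to its edit, which cannot be told apart from the edit here. GFP reporter cells were also made from control lines and the line with the SORL1 stop codon, and the labels do not say whether any library comes from them.

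SORL1 encodes SORLA, a sorting receptor of the VPS10-domain family that moves between the Golgi, endosomes and the cell surface. It hands cargo such as the amyloid precursor protein to retromer, the complex that returns proteins from endosomes to the Golgi or the surface, and loss-of-function variants are linked to Alzheimer's disease. In microglia, the endosome and lysosome system handles engulfed material and lipoprotein particles, and APOE is the main lipid carrier the cells secrete.

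The sequence shows where the edit of the second SORL1 line falls, with the altered codon in capitals and 10 codons on either side in lower case, as the reference transcript (GENCODE 29, ENST00000260197.11, plus strand) reads before editing:
A528T site: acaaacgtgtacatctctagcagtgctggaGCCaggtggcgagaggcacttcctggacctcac
This codon lies in the coding sequence of exon 11 of 48, at GRCh38 chromosome 11, 121522975 to 121522977, and a single base change turns GCC into ACC. Deposited values are per gene, so reads over the edited codons were not examined and the edits themselves could not be checked.

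All 14 microglia and macrophage markers averaged at least 1 TPM in both groups, with summed levels of 9471 to 11580 TPM in WT and 9152 to 15887 TPM in SORL1-KO. The 7 pluripotent stem cell markers summed to at most 0.7 TPM in any library. At least 1 TPM was reached by 13252 to 14086 genes per library. The depth of single libraries cannot be read from TPM; per the labels the series averaged 45.13 M reads, between 39.2 and 64.6 M. Some libraries stood apart from the rest of their group. SORL1-KO library 7 differed by at least 2-fold from the median of the other SORL1-KO libraries in 1850 genes (13.8%) and library 4 in 569 genes, against 163 to 236 genes for the other 5. In WT the number lay between 140 and 425. Summed RNA of 28 cell cycle genes was 869 TPM in SORL1-KO library 7, against 1654 to 2159 TPM in the other SORL1-KO libraries and 1768 to 2111.5 TPM in WT. Summed RNA of 15 endothelial and stromal markers was 190 to 3266.5 TPM in WT, with libraries 5 and 6 highest at 1377 and 3266.5 TPM, and 146 to 425.5 TPM in SORL1-KO; 3 of the 15 averaged below 1 TPM in WT and 8 in SORL1-KO, and none was at 0 throughout a group. In bulk RNA, fewer cells of a type and less RNA per cell cannot be told apart.

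SORL1 RNA was lower in SORL1-KO but was far from lost. It lay between 18.6 and 43.2 TPM in WT (median 36.3) and between 12.6 and 21.5 TPM in SORL1-KO (median 15.99), and every SORL1-KO library was below the WT mean. The ranges overlapped only at WT libraries 5 and 6, which had 20.6 and 18.6 TPM, while the other 5 WT libraries had at least 35.8 TPM. The change in log2(TPM + 1) was -0.96 ± 0.25 (SE; limma adjusted p = 0.0452). An exact two-sided permutation of 7 against 7 libraries gave p = 0.00233 (0.00466 adjusted over the tests of SORL1 and APOE). With same-numbered libraries paired, an exact sign-flip test of 7 pairs gave p = 0.0156, the smallest that test allows. In limma the call was near its threshold, and it was kept in 11 of 29 alternatives. Without WT libraries 5 and 6 the change was -1.24 (limma adjusted p = 0.0229). In SORL1-A528T, SORL1 lay between 22.1 and 60.7 TPM (median 41.4), and SORL1-KO was lower than that line by a log2 change of -1.20 ± 0.25 (SE; limma adjusted p = 0.0232).

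APOE lay between 1744 and 4615 TPM in WT (median 2434) and between 3575 and 5714 TPM in SORL1-KO (median 4456). All 7 SORL1-KO libraries were above the WT mean, and the ranges overlapped only at WT library 3, which had 4615 TPM and also the lowest summed stromal RNA in WT, 190 TPM. The change was 0.80 ± 0.23 (SE) in log2(TPM + 1), with a 95% interval of 0.35 to 1.26. In the fit across all genes it missed the threshold (limma adjusted p = 0.0716), whereas the two-sided exact permutation test gave p = 0.00466. The smallest p that 7 against 7 libraries allow is 0.000583. The exact sign-flip test of 7 pairs gave p = 0.0156, again its smallest. The limma call turned on WT library 3, since without it the change was 0.95 (limma adjusted p = 0.0189). With a stromal marker score, the mean log2(TPM + 1) of the 15 endothelial and stromal markers, added to the fit it was 0.42 (limma adjusted p = 0.515), and without WT libraries 5 and 6 it was 0.61 (limma adjusted p = 0.495). Libraries 5 and 6 had the 2 lowest values of APOE, and also of SORL1, in each of WT, SORL1-KO and SORL1-A528T; the labels do not explain the replicate numbers. Of the other genes edited in the series, TREM2 (0.30, 95% interval -0.07 to 0.66), CD33 (-0.40, -0.82 to 0.02) and INPP5D (-0.04, -0.22 to 0.13) did not pass limma's test (adjusted p = 0.619, 0.510 and 0.910). TREM2, the lipid receptor lost in another line of the series, lay between 295 and 585 TPM in WT and between 402 and 780 TPM in SORL1-KO.

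**Figure D1:**
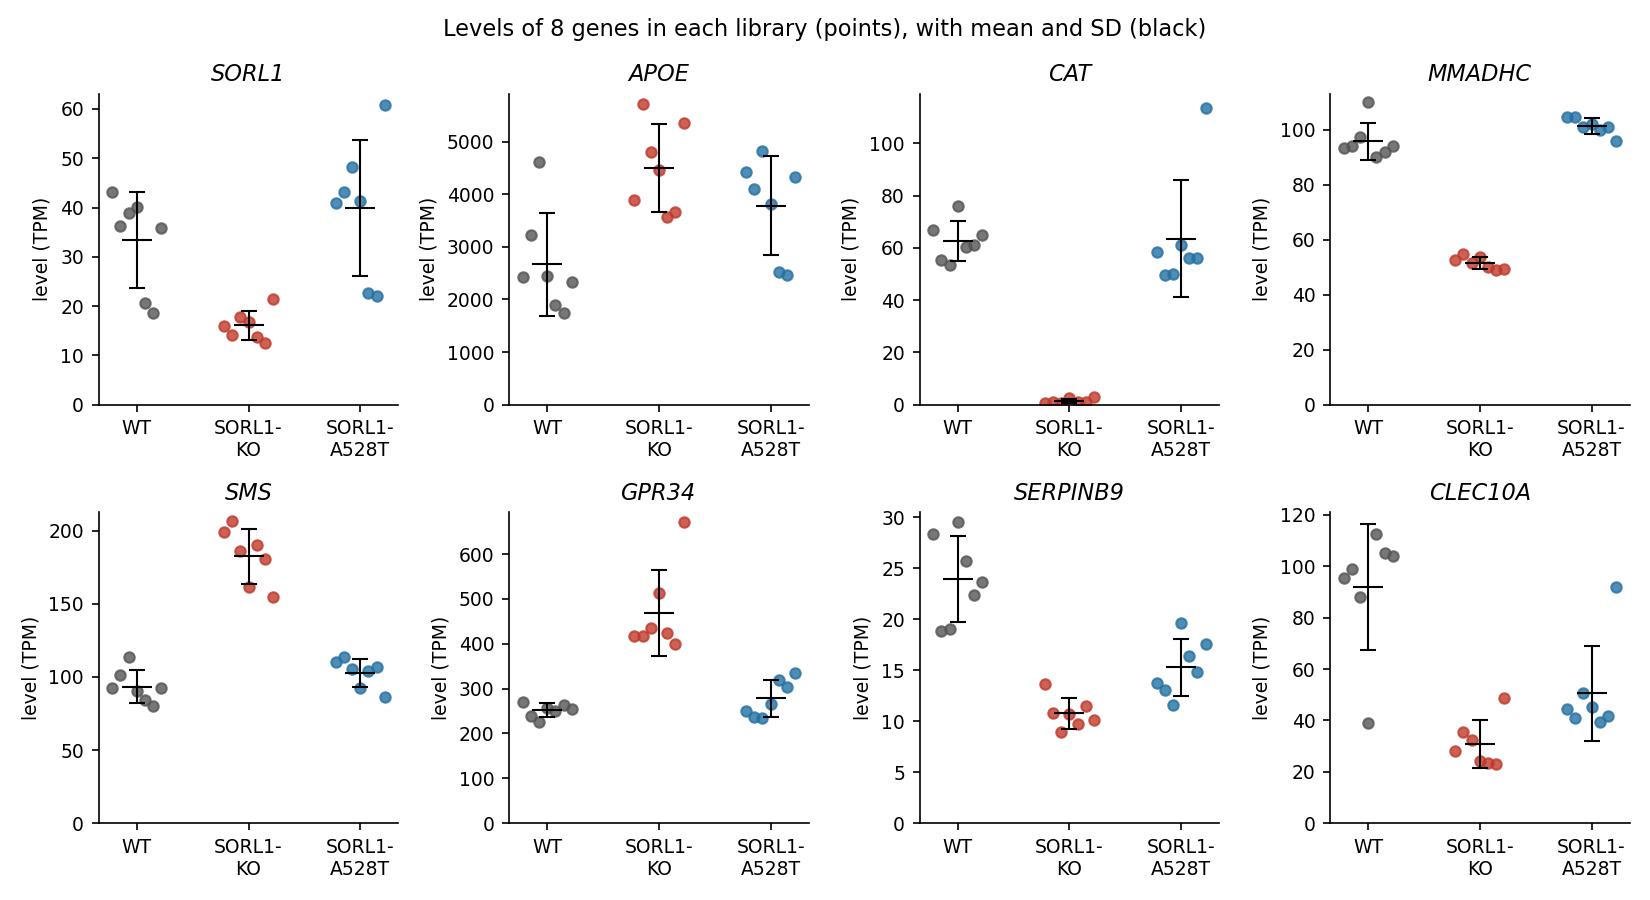
Levels in TPM of 8 genes in the 7 WT, 7 SORL1-KO and 7 SORL1-A528T libraries; each point is a library, and black marks give the mean and SD. Catalase (CAT) was at 2.93 TPM or less in every SORL1-KO library, and for MMADHC, SMS, GPR34 and SERPINB9 the SORL1-KO points do not overlap those of WT.

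Across the 13414 genes, 138 (1.03%) were called different between SORL1-KO and WT by limma (adjusted p below 0.05), 37 higher (0.276%) and 101 lower (0.753%) in SORL1-KO. Most genes differed little, with an absolute log2 change under 0.5 for 95.5% of them, and the median change over all genes was -0.037 with a median SE of 0.133. Of the called genes, 35 had changed by at least 2-fold on the log2(TPM + 1) scale, 8 of them higher and 27 lower. The library ranges of WT and SORL1-KO did not overlap for 83 genes (0.619%), with 23 higher (0.171%) and 60 lower (0.447%) in SORL1-KO, of which 47 were among the called genes. The split between higher and lower moved with the scaling, from 26.8% higher with TPM as deposited to 39.7% higher with median-ratio scaling and 45.5% with quantile normalization. The count of calls also rested on few libraries. It was 45 without WT library 5, 57 without WT library 6, 74 without SORL1-KO library 7 and 211 without WT library 3, with 79 to 86 without SORL1-KO libraries 1, 2 or 3 in turn. Without WT libraries 5 and 6 together 27 genes were called, all of them among the 138, and with that stromal score in the fit 18 were called, 16 of them among the 138. Of the genes named here as called, those still called with the stromal score were CAT, MMADHC, SMS, GPR34, SERPINB9, RAB24, ASPHD2, ZNF717, SYNGR3, SYT11, ASRGL1 and SORL1, and the others were not. The same genes, with LINC01357, CLEC10A, ATP2A3, NCF1, NCF1C, CYTL1, EPB41L2 and TMEM255A, were the named ones still called without WT libraries 5 and 6.

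**Figure D2:**
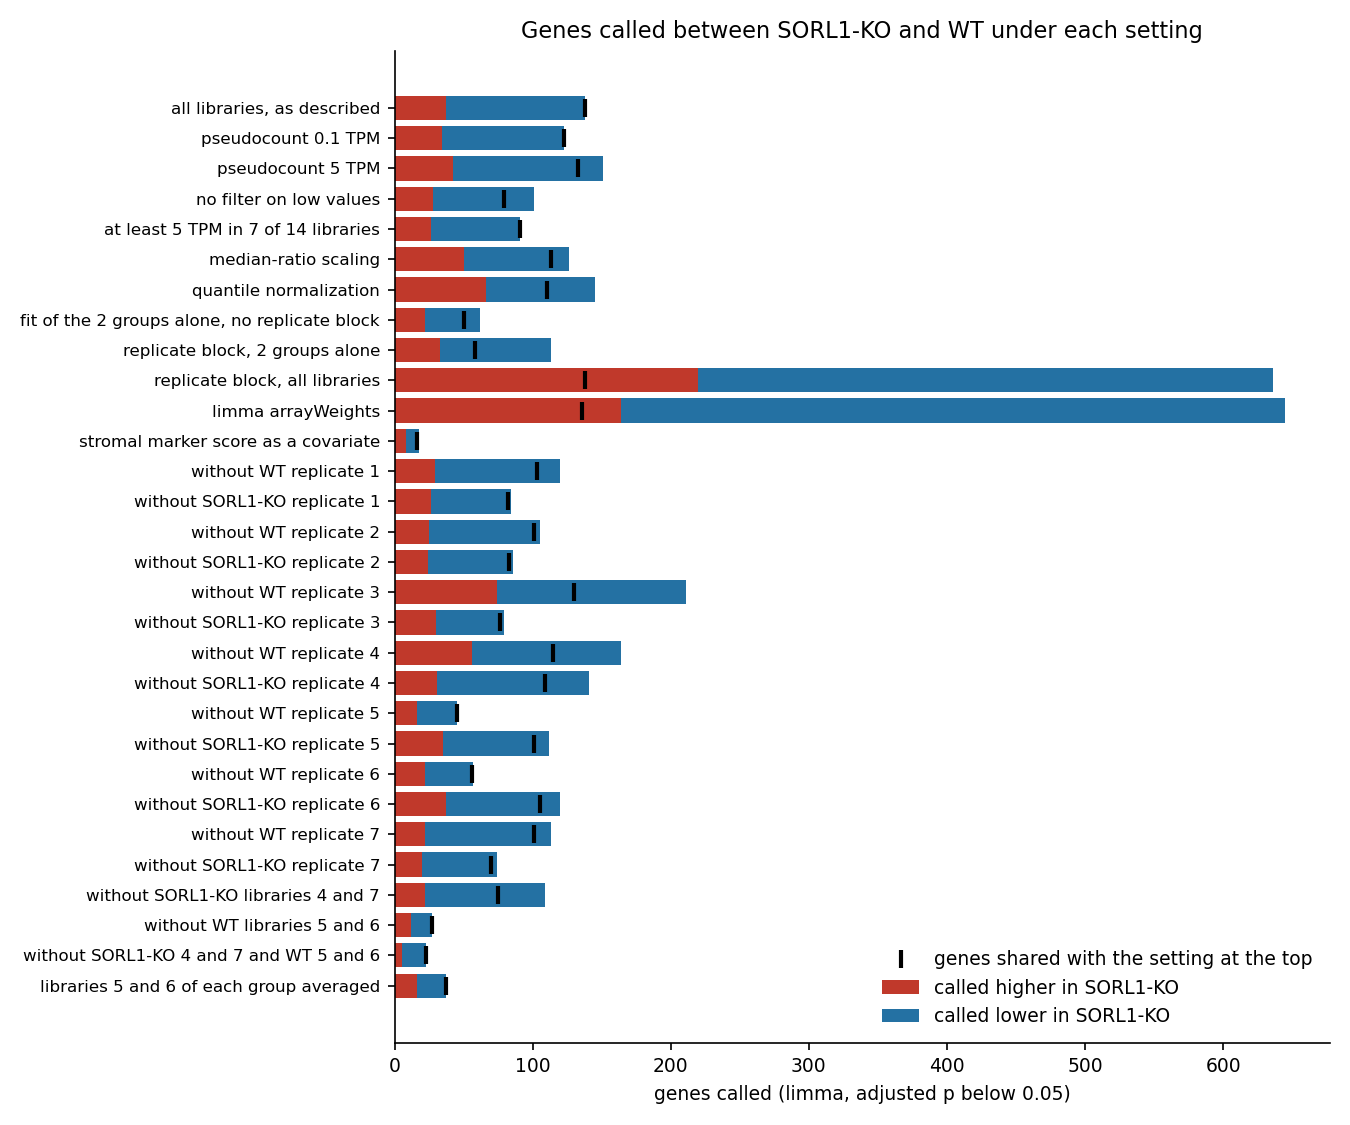
Number of genes called higher and lower in SORL1-KO against WT (horizontal axis, stacked bars) under each processing setting, with a tick for the number shared with the 138. The count ran from 18 with the stromal score as a covariate to 645 with limma's library weights.

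**Figure D3:**
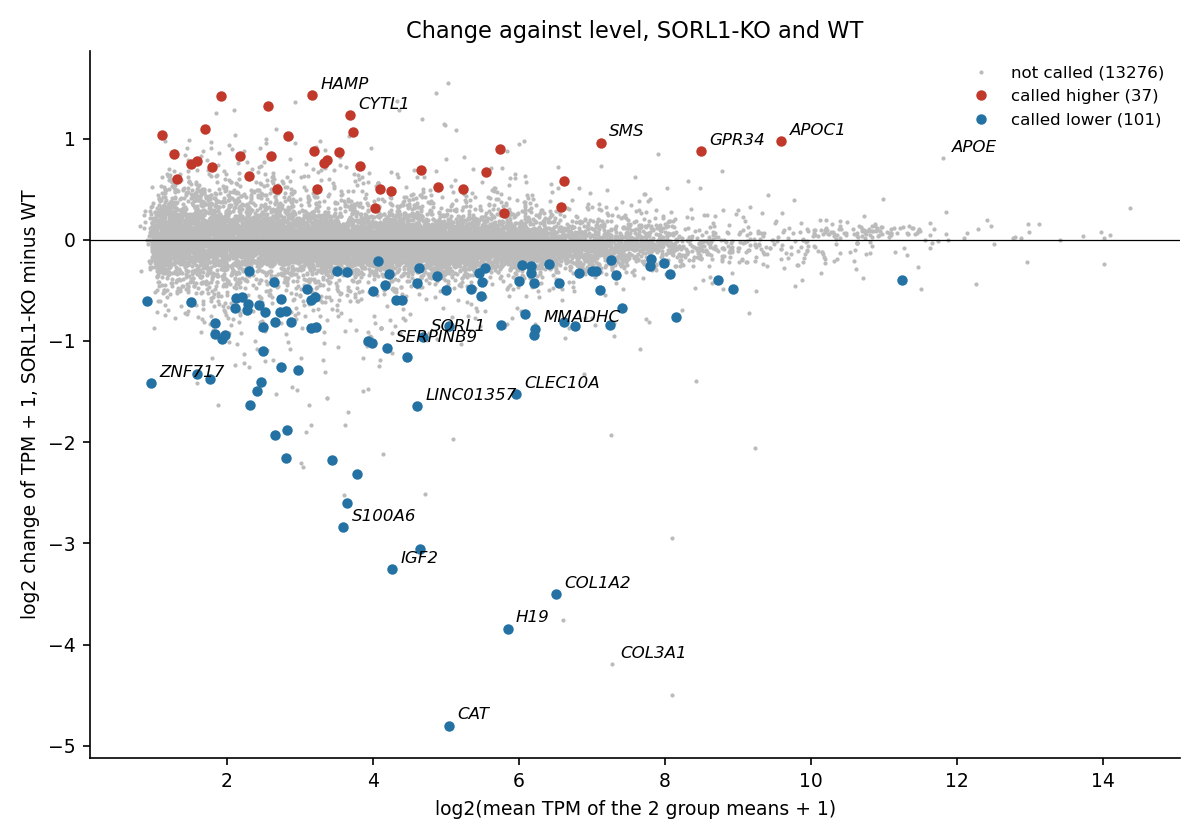
Log2 change of TPM + 1 in SORL1-KO against WT (vertical axis) for the 13414 genes, by the log2 of their mean level (horizontal axis). Genes called higher (37) are red, genes called lower (101) blue and the rest grey; CAT lies lowest, and COL3A1 lies almost as low without being called.

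The genes called under every processing alternative were picked out after their values were seen: 7 of the 138 were called in all 29 alternatives. These were the lower CAT, MMADHC, SERPINB9, RAB24 and ASPHD2 and the higher SMS and GPR34. CAT (ENSG00000121691, chromosome 11, 34438925 to 34472062) encodes catalase, the peroxisomal enzyme that breaks down hydrogen peroxide. It lay between 53.4 and 76.0 TPM in WT (median 61.0) and between 0.51 and 2.93 TPM in SORL1-KO (median 1.07). No SORL1-KO library came near the WT range, and the log2 change was -4.80 ± 0.26 (SE; limma adjusted p = 2.73e-16). MMADHC (chromosome 2, 149569634 to 149587816), which encodes a protein that directs vitamin B12 to its enzymes, lay between 90.1 and 110 TPM in WT (median 94.0) and between 48.9 and 54.8 TPM in SORL1-KO (median 51.5). The spread within each group was small, and the log2 change was -0.88 ± 0.05 (SE; limma adjusted p = 1.97e-16). Its level was close to the WT level in other lines of the series, at a mean of 103 ± 5.37 TPM in TREM2-KO (SD, n = 8), 101 ± 6.21 TPM in TREM2-R47H (SD, n = 7) and 101 ± 3.04 TPM in SORL1-A528T (SD, n = 7). CAT varied more between lines, with 14.5 to 62.2 TPM in TREM2-KO and 35.6 to 56.5 TPM in TREM2-R47H, all above the SORL1-KO range.

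SMS (chromosome X, 21940573 to 21994835) encodes spermine synthase, which makes the polyamine spermine. It lay between 80.3 and 114 TPM in WT (median 92.3) and between 155 and 207 TPM in SORL1-KO (median 186), with a log2 change of 0.96 ± 0.11 (SE; limma adjusted p = 1.88e-06). The lowest SORL1-KO value, 155 TPM in library 7, was still above all WT values. GPR34 (chromosome X, 41688973 to 41697277), a receptor for lysophosphatidylserine on homeostatic microglia, lay between 225 and 270 TPM in WT (median 255) and between 401 and 672 TPM in SORL1-KO (median 424). The groups did not overlap, and the log2 change was 0.87 ± 0.12 (SE; limma adjusted p = 5.1e-05). Its neighbour GPR82, which lies 26878 bp away, changed by 0.56 without passing (limma adjusted p = 0.0523), from a mean of 69.3 TPM in WT to 102.6 TPM in SORL1-KO.

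SERPINB9, an inhibitor of the cytotoxic protease granzyme B, lay between 18.9 and 29.5 TPM in WT (median 23.7) and between 8.94 and 13.6 TPM in SORL1-KO (median 10.7; log2 change -1.07, limma adjusted p = 1.69e-05). RAB24, a GTPase linked to autophagy, lay between 47.8 and 52.3 TPM in WT and between 31.9 and 43.6 TPM in SORL1-KO (-0.42, limma adjusted p = 0.00111). ASPHD2 lay between 6 and 8.56 TPM in WT and between 3.79 and 4.78 TPM in SORL1-KO (-0.59, limma adjusted p = 0.000172). None of these 3 genes had overlapping ranges. The low level of SERPINB9 was not particular to SORL1-KO. In TREM2-R47H it was lower still, between 4.82 and 7.82 TPM, while in TREM2-KO it lay between 16.2 and 29.4 TPM. Of the tested genes within 250 kb of CAT (1), SMS (2), GPR34 (2), SERPINB9 (9), ASPHD2 (7) and SORL1 (1), none was called; of the 13 near RAB24, 1 was called.

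SORL1-KO was next set against SORL1-A528T, which shares the SORL1-KO libraries with the comparison above but not the WT libraries. In that comparison 16 of the 13414 genes were called (0.119%), 5 higher (0.0373%) and 11 lower (0.082%) in SORL1-KO. With the replicate number as a block in the same fit of all libraries, 24 genes were called, 7 higher and 17 lower, among them all 16. Fitted on these 2 groups alone, 12 genes were called without the block and 93 with it (31 higher and 62 lower, 15 of them among the 16). The 93 also held genes named below as called against WT. CLEC10A, ATP2A3, NCF1C, CCND3, ADAM19 and C12orf75 were lower, and HAMP, CYTL1, GYPC, EPB41L2 and MAP4K4 higher. Their limma adjusted p ran from 0.0033 for CLEC10A to 0.041 for MAP4K4. Others, such as RUNX2, PDLIM1 and CXCR3, were not among the 93. Among the 16, CAT had a log2 change of -4.78 (limma adjusted p = 3.26e-16), MMADHC -0.96 (1.02e-17), SMS 0.82 (3.53e-05) and GPR34 0.74 (0.00104). In SORL1-A528T itself CAT lay between 49.7 and 113 TPM, MMADHC between 96.0 and 105 TPM, SMS between 86.3 and 114 TPM and GPR34 between 235 and 336 TPM, all outside the SORL1-KO ranges. By contrast, SERPINB9 lay between 11.6 and 19.6 TPM in SORL1-A528T, overlapping SORL1-KO, and was not called between the edited lines (-0.46, limma adjusted p = 1.00).

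Others of the 16 were also called against WT with the same sign, and are named after their values were seen. LINC01357, a long non-coding RNA, had 29.03 to 40.9 TPM in WT, 19.6 to 58.2 TPM in SORL1-A528T and 7.05 to 12.6 TPM in SORL1-KO; the log2 changes were -1.64 against WT (limma adjusted p = 0.000831) and -1.60 against SORL1-A528T (0.00146). LINC01356, which overlaps it on chromosome 1, changed by -1.10 (limma adjusted p = 0.0112) and -1.05 (0.0479). ZNF717, a zinc finger gene, was at 1.03 to 2.81 TPM in WT and at 0 to 0.12 TPM in SORL1-KO (-1.42, limma adjusted p = 9.61e-07). ZNF717 met the filter through its WT libraries alone, so it was tested only because it was high in that group, and its p-value carries this selection. POLI, a DNA polymerase of damage bypass, was lower (-0.81, limma adjusted p = 0.00867; median 6.92 TPM in WT and 3.12 TPM in SORL1-KO). The vesicle proteins SYT11, a synaptotagmin (0.83, limma adjusted p = 0.00141; median 2.01 TPM in WT and 5.02 TPM in SORL1-KO), and SYNGR3, a synaptogyrin (1.03, 0.00022; median 0.41 and 1.68 TPM), were higher. The WT median of SYNGR3 lay below the filter's 1 TPM, so SYNGR3 met the filter mainly through SORL1-KO libraries. The POLI call against WT was lost without WT libraries 5 and 6 (limma adjusted p = 0.108) and with the stromal score (0.307), as was that of LINC01356 (0.132 and 0.338); LINC01357 was lost with the stromal score (0.0596). SYNGR3 was not called against SORL1-A528T in the 2 groups alone, with the block (limma adjusted p = 0.0546) or without it (0.0965). The calls of POLI, LINC01356 and SORL1 against SORL1-A528T were lost in more alternatives than that of SYNGR3. With no filter on low values, for example, their limma adjusted p was 0.111, 0.111 and 0.0632.

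The 5 other genes of the 16 did not pass against WT. TFE3, a transcription factor of lysosome genes, had 61.5 to 70.8 TPM in WT, 56.2 to 67.9 TPM in SORL1-KO and 103.7 to 118 TPM in SORL1-A528T. The Golgi UDP-galactose transporter gene SLC35A2 had 16.8 to 24.5 TPM in WT, 13.7 to 22.3 TPM in SORL1-KO and 30.0 to 40.4 TPM in SORL1-A528T, and the endosomal adaptor gene GRIPAP1 had 30.2 to 35.9, 25.7 to 35.6 and 44.2 to 60.2 TPM in that order. For these 3 genes the range of SORL1-A528T lay above those of WT and SORL1-KO. TFE3 (49028726 to 49043486), GRIPAP1 (48973720 to 49002264) and SLC35A2 (48903180 to 48911958) lie close together on chromosome X, which held 6 of the 16 calls over 427 tested genes (1.41%), against 10 over 12987 elsewhere (0.077%). With the block in the 2 groups alone the shares were closer, at 13 of 427 (3.04%) and 80 of 12987 (0.616%). The others were the lymphocyte adaptor gene SASH3, also on X and lower in SORL1-KO (-0.65, limma adjusted p = 0.00161), and TBC1D15, a regulator of RAB7, higher (0.87, 0.00277; 18.7 to 38.9 TPM in SORL1-KO and 9.07 to 17.9 TPM in SORL1-A528T).

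Of the called higher genes, HAMP had the largest log2 change. It encodes the iron hormone hepcidin and lay between 1.56 and 7.40 TPM in WT (median 3.74) and between 8.34 and 14.2 TPM in SORL1-KO (median 12.5); the log2 change was 1.43 ± 0.28 (SE; limma adjusted p = 0.00632). CYTL1, a secreted cytokine-like protein, lay between 4.34 and 9.49 TPM in WT and between 13.8 and 20.3 TPM in SORL1-KO (1.23, limma adjusted p = 0.0015). RUNX2, a transcription factor known from bone, lay between 2.72 and 4.56 TPM in WT and between 6.13 and 11.0 TPM in SORL1-KO (1.03, limma adjusted p = 0.00934). These 3 genes did not overlap between groups, and their SORL1-A528T medians lay in between, at 5.91 TPM for HAMP, 11.6 TPM for CYTL1 and 6.30 TPM for RUNX2. With the replicate block in the 2 edited groups alone, HAMP (0.93, limma adjusted p = 0.0103) and CYTL1 (0.49, 0.0146) were called higher than in SORL1-A528T, and RUNX2 was not called.

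TMEM255A (1.07), the red cell surface glycophorin GYPC (0.90), the pore-forming protein GSDME (0.87), the transcription cofactor EYA2 (0.83), the cytoskeletal protein EPB41L2 (0.58), the lysosomal sialic acid exporter SLC17A5 (0.50) and the kinase MAP4K4 (0.33) also rose, with limma adjusted p between 0.00176 for EPB41L2 and 0.0253 for EYA2. Without WT libraries 5 and 6, the calls of CYTL1 (limma adjusted p = 0.025; 0.124 with the stromal score), TMEM255A (0.037; 0.11) and EPB41L2 (0.0229; 0.121) were kept, and those of HAMP (0.122), RUNX2 (0.0735), GYPC (0.132), GSDME (0.07), EYA2 (0.0893), SLC17A5 (0.234) and MAP4K4 (0.122) were not. On chromosome 11, the asparaginase gene ASRGL1 rose (0.69, limma adjusted p = 0.0237).

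Among lower genes outside the stromal group, CLEC10A, a galactose-binding lectin of dendritic cells and macrophages, lay between 39.0 and 112 TPM in WT (median 99.1) and between 23.1 and 48.9 TPM in SORL1-KO (median 28.3). WT library 4 alone, at 39.0 TPM, fell into the SORL1-KO range, and the log2 change was -1.53 ± 0.27 (SE; limma adjusted p = 0.0015; 0.025 without WT libraries 5 and 6, and 0.0825 with the stromal score). ATP2A3, a calcium pump of the endoplasmic reticulum, lay between 44.5 and 84.5 TPM in WT and between 32.1 and 43.4 TPM in SORL1-KO (-0.84, limma adjusted p = 0.000831; 0.0229 without those libraries, and 0.0652 with the stromal score). NCF1, a subunit of the phagocyte NADPH oxidase, and its near-identical copies NCF1B and NCF1C changed by -0.76, -0.81 and -0.84 (limma adjusted p = 0.00142, 0.00665 and 0.00327, and 0.098, 0.221 and 0.166 with the stromal score); reads of these copies may be split between them, so the individual values are uncertain. The median of NCF1 was 333 TPM in WT and 224 TPM in SORL1-KO. Low levels of CLEC10A, ATP2A3 and NCF1C were not particular to SORL1-KO. Their means in TREM2-R47H were 19.5, 22.2 and 55.1 TPM, against 30.8, 37.3 and 109 TPM in SORL1-KO. In TREM2-KO the means were 88.0, 78.4 and 215 TPM.

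CCND3, a D-type cyclin, fell from a median of 85.8 to 52.2 TPM (-0.94, limma adjusted p = 0.0237), the metalloprotease ADAM19 from 18.3 to 9.76 TPM (-1.02, 0.0237), the chemokine receptor CXCR3 from 10.0 to 5.21 TPM (-0.87, 0.0312), the LIM protein PDLIM1 from 8.60 to 2.84 TPM (-1.25, 0.0296) and C12orf75 from 131 to 69.0 TPM (-0.86, 0.0275). In TREM2-R47H the medians were 42.6, 10.5, 3.05, 1.59 and 48.3 TPM in the same order, all below the WT medians. Without WT libraries 5 and 6 none of these 5 kept its call, with limma adjusted p from 0.24 for CCND3 to 0.375 for CXCR3. Without SORL1-KO libraries 4 and 7 that of PDLIM1 was kept (limma adjusted p = 0.0277), whereas those of CCND3 (0.117), ADAM19 (0.0779), CXCR3 (0.0989) and C12orf75 (0.119) were not. The planar polarity gene PRICKLE3 on chromosome X (-0.31, limma adjusted p = 0.0452) and FAM89B on chromosome 11 (-0.31, 0.0112) were lower by small amounts. Called genes were spread over the chromosomes, from 0.152% of the tested genes on chromosome 16 to 1.69% on chromosome 6. Chromosome 11 had 0.936% of its genes called and chromosome X 1.17%.

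Several of the largest falls after CAT were in connective tissue and imprinted genes whose WT levels were highest where stromal marker RNA was highest. COL1A2, a fibrillar collagen chain, lay between 3.06 and 687 TPM in WT (median 117) and between 2.09 and 26.5 TPM in SORL1-KO (median 3.40; log2 change -3.50 ± 0.87 SE, limma adjusted p = 0.0372). The imprinted growth factor gene IGF2 lay between 0.13 and 158 TPM in WT (median 9.48) and between 0.10 and 1.5 TPM in SORL1-KO (median 0.17; -3.25, limma adjusted p = 0.00993), and the neighbouring imprinted RNA H19 between 0 and 533 TPM and between 0 and 2.76 TPM (-3.84, 0.0247). In SORL1-A528T the medians were 5.5 TPM for COL1A2, 0.6 TPM for IGF2 and 1.29 TPM for H19, and none was called against SORL1-KO. Mean COL1A2 was 16.5 TPM in TREM2-KO, 17.1 TPM in TREM2-R47H and 11.3 TPM in CD33-SNP (n = 2). It was 239 TPM in INPP5D-SNP (n = 2) and 174 TPM in WT. Low levels of these genes were therefore not particular to SORL1-KO. WT library 3, at 190 TPM of stromal markers, had 3.06 TPM of COL1A2, itself one of those markers, and 0.13 TPM of IGF2. WT libraries 1 and 7, at 360 and 342 TPM, had 17.5 and 14.6 TPM of COL1A2, while SORL1-KO libraries 4 and 7, at 419 and 425.5 TPM, had 26.5 and 5.37 TPM. These sums rest on different markers. PECAM1 had the highest mean of the 15 in SORL1-KO (215 TPM) and COL3A1 in WT (299 TPM). Equal sums therefore do not mean equal connective tissue RNA. The stromal score was 2.08 and 2.07 in these WT libraries and 2.49 and 1.70 in these SORL1-KO libraries. The part of stromal RNA in these falls was not tested. IGF2 and H19 met the filter mainly through WT libraries, and their p-values carry this selection. Of the 8 stromal markers tested, COL1A2, the proteoglycans DCN (-3.06) and LUM (-2.60) were called lower (limma adjusted p = 0.0484 and 0.0312 for the last 2) and none higher. All 8 had a change below 0, with a median of -2.83 against -0.037 over all genes. COL3A1, with the highest WT mean of the 15 markers, was not called (-4.20 ± 1.12 SE, limma adjusted p = 0.0545).

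SERPINE2, a protease inhibitor of connective tissue, and the matrix proteins FBLN1 and FBN1 were lower too (-2.32, -2.17 and -1.63; limma adjusted p = 0.0484, 0.0424 and 0.0423). FBN1 was the 1 called gene of the 22 tested in the extracellular matrix list. COL1A2, DCN and LUM are themselves in the stromal score, so a fit with that score tests nothing for them. With the score added to the fit, H19 had a change of -0.79, IGF2 -0.83, SERPINE2 -0.19, FBLN1 -0.20 and FBN1 -0.19, and none was called. Without WT libraries 5 and 6 none was called either, and the median of the 8 markers was -1.78. S100A6, a calcium-binding protein of many mesenchymal and myeloid cells, lay between 2.23 and 41.5 TPM in WT (median 19.1) and between 0.87 and 2.82 TPM in SORL1-KO (median 1.08; -2.84, limma adjusted p = 0.0112). Unlike IGF2, it had 19.1 TPM in WT library 3, and with the stromal covariate its change was -2.05 (limma adjusted p = 0.317). In SORL1-A528T the median of S100A6 was 1.14 TPM.

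**Figure D4:**
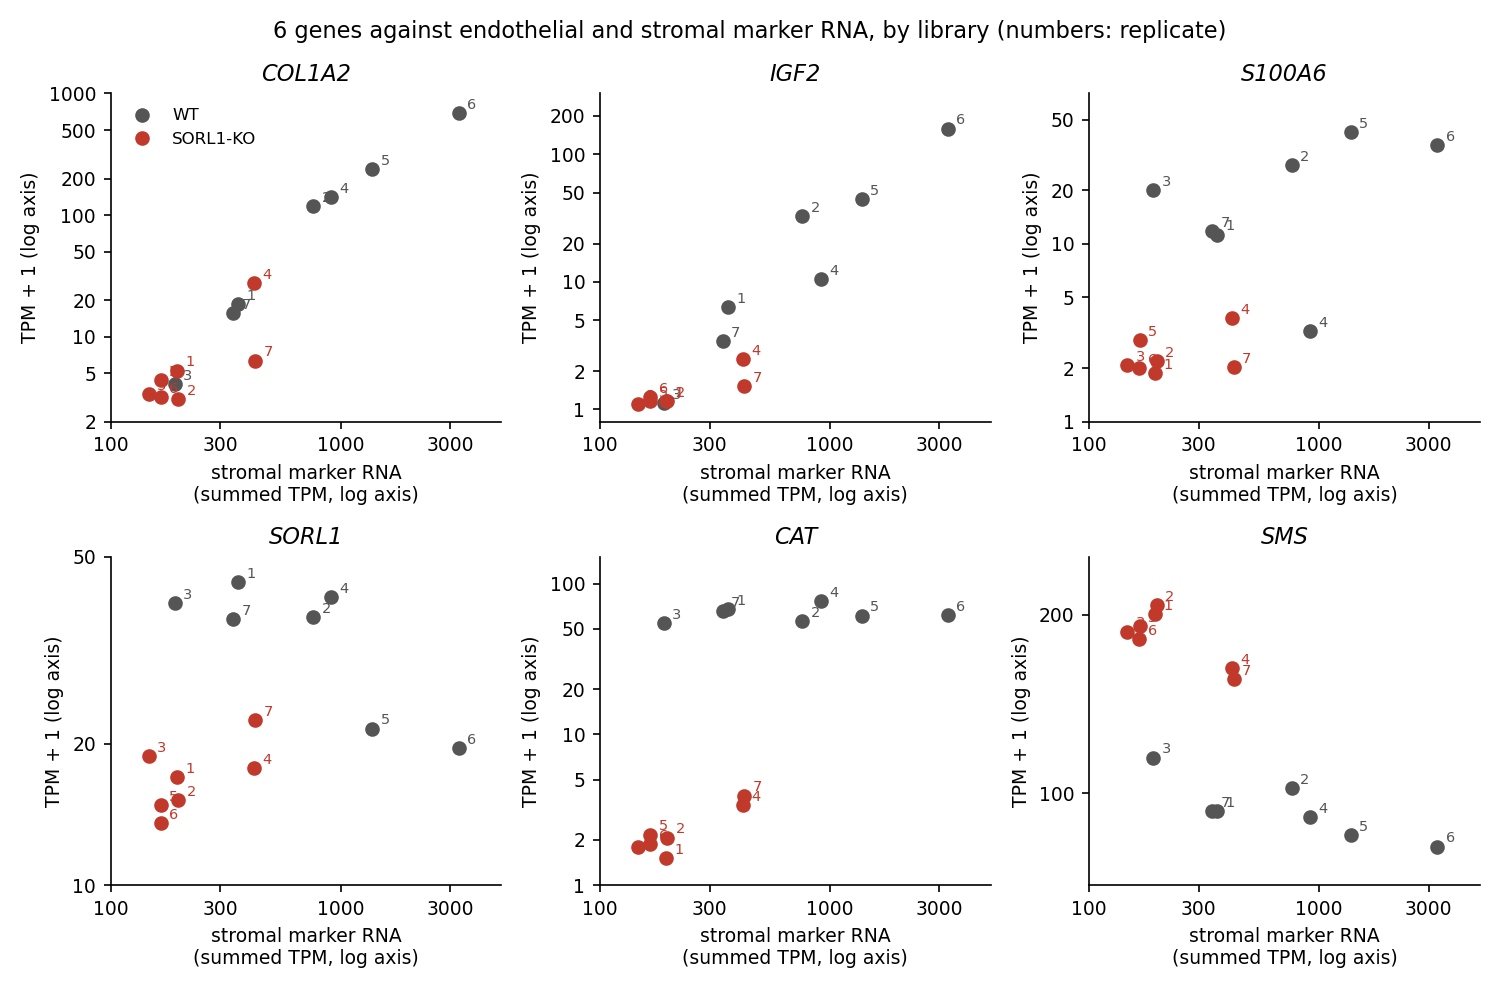
TPM + 1 of 6 genes (vertical, log axis) against the summed TPM of 15 endothelial and stromal markers (horizontal, log axis) in the 7 WT and 7 SORL1-KO libraries, numbered by replicate. COL1A2 and IGF2 are highest in WT libraries 5 and 6, which have the largest stromal sums, whereas CAT and SMS do not overlap between the groups, and SORL1 is low in WT libraries 5 and 6. In SORL1-KO most of the sum comes from PECAM1.

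The genes around SORL1 in the sorting pathway were described by lists, each set against the 1.03% of all genes called. Over all genes the median change was -0.037, with quartiles of -0.132 and 0.067. More genes thus had a change below 0 than above it, and counts of signs within lists are given beside that. Of the VPS10-domain receptors, 3 were tested and SORL1 alone was called. In the retromer and endosomal sorting list 1 of 34 genes was called: RAB7A, the GTPase that recruits retromer to late endosomes, lay between 254 and 295 TPM in WT and between 222 and 246 TPM in SORL1-KO (-0.23 ± 0.05 SE, limma adjusted p = 0.014), without overlap. EHD1, a membrane-shaping ATPase of recycling endosomes, had a median of 295 TPM in WT and 166 TPM in SORL1-KO and did not pass (-0.81, limma adjusted p = 0.13). The median over the retromer list was -0.004. None of the 22 Golgi to endosome adaptors and SORL1 partners was called by limma, and 4 had an unadjusted p below 0.05; GGA1, an adaptor that binds the tail of SORLA, had a change of 0.29 (limma adjusted p = 0.128). Without WT libraries 5 and 6 the RAB7A call was lost (-0.19, limma adjusted p = 0.167).

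In the list of APP and the enzymes that cut or degrade it, 1 of 17 was called. MME, the gene of the amyloid-degrading protease neprilysin, lay between 0.78 and 10.5 TPM in WT (median 2.57) and between 0.16 and 1.17 TPM in SORL1-KO (median 0.40; -1.33, limma adjusted p = 0.00726). MME met the filter mainly through WT libraries, and its p-value carries this selection. The SORL1-A528T median of MME was 0.47 TPM, and with the stromal covariate its change was -0.57 (limma adjusted p = 0.35). APP itself had a median of 99.8 TPM in WT and 90.5 TPM in SORL1-KO and did not pass (-0.18, 95% interval -0.36 to 0.01). The protease gene BACE2 had medians of 4.41 and 6.91 TPM (0.62, limma adjusted p = 0.314).

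In the lysosome and autophagy lists no gene was called by limma, among 38 hydrolases, 31 membrane, proton pump and regulatory genes and 26 genes of the autophagy machinery. The called genes SLC17A5 and RAB24, described above, are not in these lists. An unadjusted p below 0.05 was seen for 10 hydrolases, 2 membrane or regulatory genes and 3 autophagy genes, and for 1403 of all 13414 genes. Of the hydrolases, 31 had a change above 0, with a median of 0.18 and a range of -0.11 to 0.51. CTSD, the aspartic protease cathepsin D, lay between 1330 and 2167 TPM in WT and between 1831 and 2941 TPM in SORL1-KO (0.40, limma adjusted p = 0.0679), and CTSA, which protects lysosomal glycosidases, had 0.28 (0.129). The median of the hydrolases was 0.038 without SORL1-KO libraries 4 and 7 and -0.055 without WT libraries 5 and 6 as well. With the replicate number as a block over all libraries, 636 of the 13414 genes were called by limma. Among them were 7 hydrolases and 1 membrane or regulatory gene, all higher, and 1 autophagy gene, lower. CLN3, a lysosomal membrane protein, had a change of 0.18 (limma adjusted p = 0.247), the lysosomal transcription factor TFEB -0.21 (0.291) and the autophagy receptor CALCOCO2 -0.48 (0.096).

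Of the apolipoprotein and cholesterol efflux list, 2 of 20 genes were called, both higher. APOC1, which is carried on lipoproteins and lies next to APOE, had 376 to 876 TPM in WT (median 474) and 828 to 1280 TPM in SORL1-KO (median 902; 0.97 ± 0.25 SE, limma adjusted p = 0.0456). SOAT1, which stores cholesterol as esters, rose from a median of 49.2 to 58.3 TPM (0.26, limma adjusted p = 0.0423). Neither call was kept with the stromal covariate (limma adjusted p = 0.444 and 0.325) or without SORL1-KO libraries 4 and 7 (0.108 and 0.141). With the replicate block over all libraries, 636 of the 13414 genes were called. Among them, 5 genes of this list were higher and 2 lower. CLU, a secreted chaperone that stromal cells also make, went the other way without passing, with medians of 35.9 and 6.27 TPM (-1.97, limma adjusted p = 0.0554; -0.14 with the stromal covariate). Of the 27 genes of cholesterol synthesis and uptake none was called by limma (1 at an unadjusted p below 0.05), and the sterol sensor partner INSIG2 had -0.37 (limma adjusted p = 0.119). Their median was -0.10, and 0.10 without SORL1-KO libraries 4 and 7. MGLL, a lipase that releases fatty acids from monoglycerides, rose in the list of fatty acid oxidation and lipid droplets (0.73, limma adjusted p = 0.0348; 1 of 29), where the droplet coat protein PLIN2 had 0.43 (0.463). The MGLL call was lost without WT libraries 5 and 6 (limma adjusted p = 0.26), with the stromal score (0.338) and with the 2 groups fitted alone (0.116).

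For microglial state, GPR34 was the 1 gene called of 21 homeostatic genes; the fructose transporter SLC2A5 had 0.81 (limma adjusted p = 0.137) and the integrin ITGAM -0.39 (0.185). Of 25 disease-associated microglia genes none was called by limma (5 at an unadjusted p below 0.05), 20 had a change above 0 and the median was 0.23, or -0.01 without SORL1-KO libraries 4 and 7 and WT libraries 5 and 6. With the replicate block over all libraries, where 636 of the 13414 genes were called, 4 of the 25 were called higher and 0 lower. GPNMB, a glycoprotein that marks lipid-laden macrophages, lay between 75.4 and 184 TPM in WT and between 118 and 257 TPM in SORL1-KO (0.73, limma adjusted p = 0.0657). The scavenger receptor MSR1 had 0.68 (limma adjusted p = 0.176). The microglia marker AIF1 had -0.17 (limma adjusted p = 0.574). Among 18 purinergic and lipid receptors GPR34 alone was called; the lysophosphatidic acid receptor LPAR5 had 0.33 (limma adjusted p = 0.111) and the UDP receptor P2RY6 -0.34 (0.176). Of 35 Alzheimer risk genes, SORL1 and EPHA1 (-0.61, limma adjusted p = 0.0484; 0.47 to 1.87 TPM in WT and 0 to 1.15 TPM in SORL1-KO) were called lower. EPHA1 kept its call in 7 of 29 alternatives, and lost it without WT libraries 5 and 6 (limma adjusted p = 0.311) and with the stromal score (0.394). It met the filter mainly through WT libraries, and its p-value carries this selection.

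In immune signalling, PTPN6, the phosphatase SHP-1 that acts behind inhibitory receptors, was the 1 gene called of 25 in the TYROBP, ITAM and ITIM list. It lay between 282 and 312 TPM in WT and between 203 and 250 TPM in SORL1-KO, without overlap (-0.34 ± 0.07 SE, limma adjusted p = 0.0135; 0.123 without WT libraries 5 and 6). The SRC-family kinase FGR had -0.85 (limma adjusted p = 0.0729), and 18 of the 25 genes had a change below 0. Of 20 cytokines, chemokines and NF-kB targets 19 had a change below 0, with a median of -0.20, and 1 was called: IL1A, an alarm cytokine, fell from a median of 7.45 to 4.05 TPM (-0.70, limma adjusted p = 0.0462). TNF had medians of 17.1 and 10.1 TPM (-1.05, limma adjusted p = 0.0852) and IL1B 145 and 102 TPM (-0.77, 0.187). The median of this list was -0.42 without SORL1-KO libraries 4 and 7 and WT libraries 5 and 6, and the IL1A call was lost without WT libraries 5 and 6 (limma adjusted p = 0.24). None of 24 phagocytosis, 22 interferon and 20 antigen presentation genes was called by limma, with 5, 0 and 1 at an unadjusted p below 0.05; SCARB1, a receptor for high-density lipoprotein, had 0.34 (limma adjusted p = 0.133). The antigen presentation median was -0.06, and -0.39 without SORL1-KO libraries 4 and 7. The replicate block over all libraries called 636 of the 13414 genes. Among them, 4 phagocytosis genes were higher and 1 lower, 1 antigen presentation gene was lower and 0 were interferon genes. Of the 8 monocyte markers tested none was called by limma (2 at an unadjusted p below 0.05); the calgranulin S100A9 lay between 82.6 and 1915 TPM in WT, with the highest summed monocyte markers in WT library 4, and between 42.5 and 355 TPM in SORL1-KO.

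Of 36 peroxisome and antioxidant genes, CAT was lower and PHYH, which starts the breakdown of phytanic acid in peroxisomes, was higher (0.50, limma adjusted p = 0.0237; median 6.98 TPM in WT and 9.43 TPM in SORL1-KO). The PHYH call was lost without WT libraries 5 and 6 (limma adjusted p = 0.26) and with the 2 groups fitted alone (0.116). The list's median was -0.002, with 18 genes above 0 and 18 below, and GCLC, of glutathione synthesis, had 0.49 (limma adjusted p = 0.237). SMS was the 1 of 15 polyamine genes called. Of 18 iron genes, HAMP and CP, the ferroxidase ceruloplasmin, were higher (CP 0.29 to 1.71 TPM in WT and 1.93 to 4.23 TPM in SORL1-KO; 0.78, limma adjusted p = 0.0468). The CP call was kept in 8 of 29 alternatives, with a limma adjusted p of 0.234 without WT libraries 5 and 6 and 0.196 with the stromal score. CP met the filter through its SORL1-KO libraries, the group where it was high, and its p-value carries this selection. S100A6 was the 1 of 11 S100 genes called. All 28 cell cycle genes had a change below 0 and none was called by limma (1 at an unadjusted p below 0.05), with a median of -0.23, TOP2A at -0.23 (limma adjusted p = 0.367) and CDK1 at -0.27 (0.585). Without SORL1-KO libraries 4 and 7 the median was 0.01. Heat shock and unfolded protein genes had 26 of 28 changes below 0 and none called by limma, 4 at an unadjusted p below 0.05 (median -0.16; XBP1 -0.35, limma adjusted p = 0.19; CRELD2 -0.27, 0.0815), and 25 glycolysis and hypoxia genes had none called by limma and 3 at an unadjusted p below 0.05 (VEGFA -0.59, 0.148). None of 18 immediate early genes was called by limma, and 3 had an unadjusted p below 0.05.

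**Figure D5:**
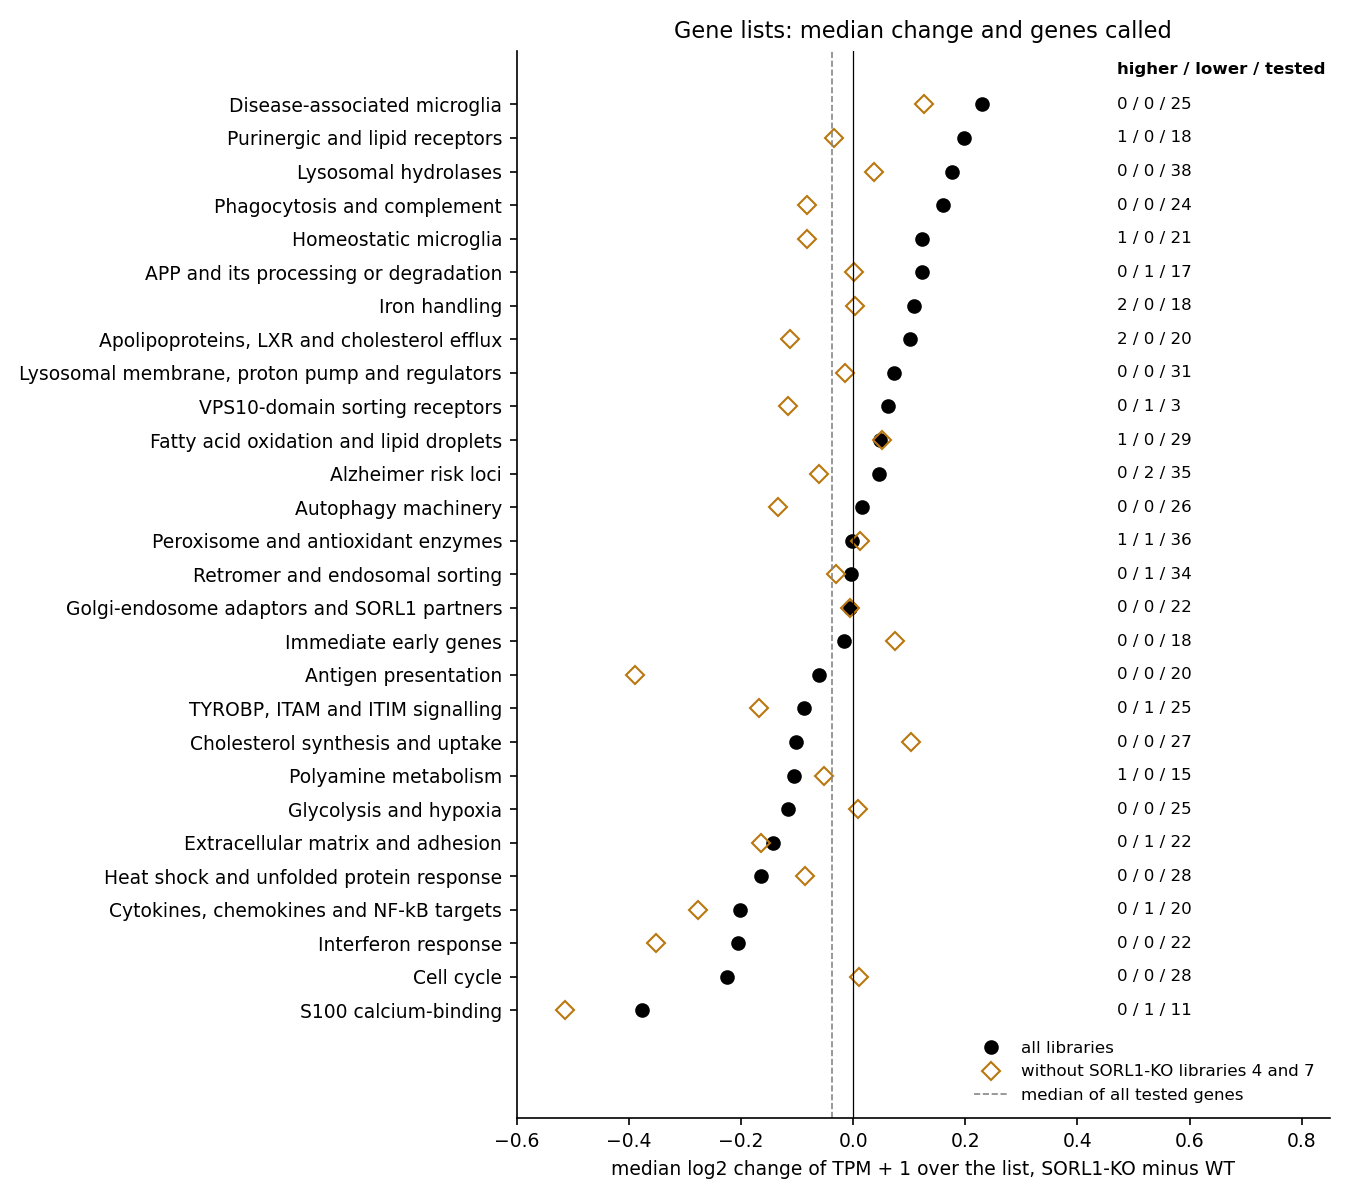
Median log2 change of TPM + 1 in SORL1-KO against WT over each of 28 gene lists, with all libraries (black) and without SORL1-KO libraries 4 and 7 (open diamonds), and the number of genes called higher, called lower and tested. The dashed line is the median of all tested genes, -0.037; the cell cycle median moves from -0.23 to 0.01 and that of antigen presentation from -0.06 to -0.39.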

How the data were processed

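Bulk RNA-seq was deposited as one table of TPM per gene and library. Per the submitters' processing notes, the authors used cutadapt 1.18, STAR 2.7, RSEM 1.3.1 and DESeq2, in roles and an order those notes do not give; no genome build is named there. Deposited TPM columns sum to between 999999.15 and 1000000.76. TPM is a share of each library, so a large rise in some genes lowers the others, and it keeps no read depth. Gene symbols matched 93.5% of identifiers and GENCODE 29 (GRCh38) positions 94.2%.

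From these values, genes reaching 1 TPM in 7 or more of the 14 libraries were kept, and log2(TPM + 1) was fitted with limma 3.58.1 in R 4.3.3 (trend and robust empirical Bayes) in one model of all 40 libraries with 7 group means. A fold change on this scale understates the change of low genes. IGF2, H19, DCN, LUM, FBN1, MME and EPHA1 had a SORL1-KO median below 1 TPM. They met the filter mainly through WT libraries, and their p-values carry this selection. P-values were adjusted by Benjamini-Hochberg over the 13414 genes, and genes with an adjusted p below 0.05 are the called genes. The 2-fold limit is on the same scale. SORL1 and APOE were also tested by exact permutation of 7 against 7 libraries, and as an alternative by exact sign flips of 7 same-numbered pairs. On simulated data with known changes, a log2 change of 1 was recovered in 85% of 100 genes and one of 0.5 in 50% of 100 genes, with 4.26% false calls. The simulated libraries were independent, with normal scatter of the same size in every group for a given gene. They held no outlying libraries and no deviations shared between libraries, so these rates do not carry over to the real calls.

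Named were SORL1 and the other edited genes with APOE. From the called genes with a mean of at least 5 TPM in a group and at most 1 library on the wrong side, those with the 15 largest rises and 15 largest falls were eligible. Also eligible were up to 4 genes of lowest p and each called gene of every list, and called genes of chromosomes X and 11. RAB24, ASPHD2, ZNF717, SYNGR3, SYT11, POLI, NCF1, NCF1B, SERPINE2, FBLN1, GPR82, TFE3, GRIPAP1, SLC35A2, SASH3 and TBC1D15 fall outside that rule and were chosen after their values were seen. The members and lists were chosen with earlier results of these data known.

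Replicate numbers paired SORL1-KO with SORL1-A528T, since the deviations of same-numbered libraries from their group means correlated at 0.385 to 0.848. Alternatives changed the pseudocount, the filter, the scaling, the model, the covariates and the libraries used. Some items are not reported here.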

Additional observations from a re-analysis of the deposited data

Results flagged for a closer look

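Among 184 sets of 7 libraries, 1 for each named gene and group, 9 held a library that lay far from the other 6. The rule was Dixon's criterion on log2(TPM + 1), with a critical value of 0.568. Chance alone picks about 1 in 20 sets, so the 9 are about as many as chance would pick. In WT, library 4 had 110.17 TPM of MMADHC, with the next library at 97.33 TPM, and 39.04 TPM of CLEC10A, with the next at 87.88 TPM. WT library 7 had 56.01 TPM of CDK1, with the next at 61.85 TPM. In SORL1-KO, library 4 was highest in 4 connective tissue and growth genes: IGF2 at 1.5 TPM (next 0.53 TPM), COL1A2 at 26.5 TPM (next 5.37 TPM), SERPINE2 at 7.03 TPM (next 1.65 TPM) and FBLN1 at 2.58 TPM (next 1.08 TPM). SORL1-KO library 7 was lowest in 2 cell cycle genes, CCND3 at 21.33 TPM (next 42.96 TPM) and CDK1 at 27.99 TPM (next 54.24 TPM).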

How the results depend on the processing

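The 138 genes called between SORL1-KO and WT became 91 with a filter of 5 TPM, 62 with the 2 groups fitted alone, 645 with limma's library weights and 18 with the stromal score as a covariate. Leaving out 1 library gave 45 to 211. In settings chosen after seeing the data, 27 were called without WT libraries 5 and 6, 23 without those and SORL1-KO libraries 4 and 7, and 37 with libraries 5 and 6 of each group averaged; the causes were not tested. With the replicate number as a block, 636 genes were called over all libraries and 113 in the 2 groups alone. Between SORL1-KO and SORL1-A528T the block gave 24 over all libraries and 93 in the 2 groups alone, where 12 were called without it; without the block, leaving out 1 library gave 13 to 17 in place of 16. For SORL1-KO and WT, same-numbered libraries correlated less, at -0.106 to 0.349. In both comparisons 5 of 7 libraries correlated best with their own number, and the labels do not say what same-numbered libraries share.

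SORL1 against WT missed limma's threshold with no filter on low values (-0.96, adjusted p = 0.08005), median-ratio scaling (-0.94, 0.0513), quantile normalization (-0.92, 0.057), without SORL1-KO libraries 4 and 7 (-1.06, 0.0539) and with libraries 5 and 6 averaged (-1.04, 0.0846). Leaving out 1 library gave -1.09 to -0.89, and the call was kept only without WT library 6. APOE passed limma's test with the block in the 2 groups alone (0.80, adjusted p = 0.0233), with the block over all libraries (0.80, 0.000639) and without WT library 3 (0.95, 0.0189), within a range of 0.71 to 0.95 when 1 library was left out. The sign turned for TREM2 without SORL1-KO libraries 4 and 7 and WT libraries 5 and 6 (-0.1), for INPP5D with quantile normalization and with the stromal covariate (0.01 in both) and for APP with the stromal covariate (0.02); none of them was called. Of 1580 values for 55 called named genes under the alternatives, 1156 stayed called, 424 did not pass and 0 changed sign. Of 1015 values for 35 named genes that were not called, 952 stayed so, 59 passed limma's test and 4 changed sign. Between SORL1-KO and SORL1-A528T, 10 of the 16 called genes were called in all 26 alternatives. TPM gives no depth, so no counting error could be set beside low values such as those of ZNF717 or SYNGR3.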
